A study of Mus musculus with 18 samples.

Results

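The sites described here are regions annotated as intergenic and distal by the authors that EBF1 occupied and PAX5 did not. They were chosen from the deposited table of EBF1-only sites, as the rows annotated as intergenic whose nearest start site lay over 1000 bp away. This gave 2736 sites, out of 7815 EBF1-only sites and 14377 bound sites in all, which also comprised 1529 sites shared by both factors and 5033 PAX5-only sites. All 2736 EBF1-only rows annotated as intergenic passed the distance rule. The choice used ChIP peaks and positions, not the accessibility or RNA values below. Just inside the distance limit stood a site 1008 bp from Zfp629, with mean ATAC signals of 5.09 in WT, 4.95 in Ebf1-KO and 5.80 in the Pax5-KO libraries. Just outside it stood an intronic site 998 bp from the start of Fcrlb, with means of 1.98, 1.06 and 1.78.

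The cells were pro-B cells from fetal liver of C57BL6/J mice, of 3 genotypes: WT, Ebf1-KO (Ebf1-/-) and Pax5-KO (Pax5-/-). All groups were grown on OP9 stromal cells with KIT ligand, FLT3 ligand and IL-7, so these conditions were common to controls and knockouts. Chromatin accessibility was measured by ATAC-seq, in which a transposase cuts open DNA, and RNA by sequencing, with 3 libraries per genotype and assay. ATAC libraries held 15.3 to 38.6 M tags (M, 1000000 tags), and all values below are tags over a site, or reads over exons, per 10 M. Nothing in the labels says that libraries came from separate animals or cultures, so p-values measure the spread between these libraries, which may be technical. In such bulk samples, fewer cells of one kind and a lower level per cell cannot be told apart. Both knockouts were compared with the same WT libraries.

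EBF1 and PAX5 are the transcription factors that specify and commit the B lineage. EBF1 binds DNA as a dimer, at a palindrome in which CCC and GGG are separated by a pair of free bases, and it acts early, in part by opening chromatin. PAX5 acts after it, switching on further B-lineage genes and shutting down those of other lineages. Intergenic sites of this kind are candidates for distal enhancers, which can lie far from the gene they act on. The nearest gene named below is therefore an annotation and not a known target.

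The sites lay a median of 28.2 kb from the nearest start site, with quartiles of 10.7 and 72.7 kb and a largest distance of 1656 kb. Of the 2736 sites, 1823 lay upstream of that start. They were spread over 2011 nearest genes, of which 1609 had 1 site, 361 had 2 or 3 and 41 had 4 or more, and 93 sites had no gene name. In the GENCODE M21 annotation of the same build, 537 of the sites lay inside a gene body. Of those, 229 lay in protein-coding genes and 203 in long intergenic noncoding RNA genes. The other 80.4% lay outside every GENCODE gene. Within 1000 bp of a GENCODE start lay 212 of the sites, which are therefore not distal by that annotation. Among those named below, the Zfp960 site lay 16 bp from the start of BC002059 and the Sox4 site 30 bp from that of Gm26735. The Glipr1 and Bach2 sites lay 47 and 946 bp from GENCODE starts of Glipr1 and Bach2.

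The sequences below show what the sites are made of. Each is the centre of a site with 50 bases on either side, 5′ to 3′ on the plus strand, read from the RefSeq copy of mouse build GRCm38 (mm10). Capitals mark the palindrome CCCNNGGG and the octamer ATGCAAAT or its reverse complement ATTTGCAT. The octamer is the element bound by OCT factors in immunoglobulin promoters. The first set holds 6 sites with large called falls of accessibility in a knockout, and only the Kcnj2 site holds a palindrome within the bases shown.
Mir1187 site, chr5:82864709-82864809: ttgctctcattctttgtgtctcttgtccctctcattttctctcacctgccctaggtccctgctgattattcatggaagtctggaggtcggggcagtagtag
Kcnj2 site, chr11:111818139-111818239: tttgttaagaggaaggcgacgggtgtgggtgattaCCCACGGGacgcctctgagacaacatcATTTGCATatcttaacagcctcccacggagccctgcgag
Acvr2a site, chr2:48149874-48149974: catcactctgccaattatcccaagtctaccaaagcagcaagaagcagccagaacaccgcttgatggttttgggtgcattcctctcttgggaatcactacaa
Gm38403 site, chr10:118976452-118976552: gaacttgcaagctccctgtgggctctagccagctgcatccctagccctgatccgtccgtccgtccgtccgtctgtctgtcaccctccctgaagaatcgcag
Glcci1 site, chr6:8623244-8623344: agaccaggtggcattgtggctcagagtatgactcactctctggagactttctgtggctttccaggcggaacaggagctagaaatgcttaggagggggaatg
Amot site, chrX:146110822-146110922: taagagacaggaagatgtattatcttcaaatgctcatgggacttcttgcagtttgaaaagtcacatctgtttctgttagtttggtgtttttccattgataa

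The second set holds 3 sites that lost accessibility in Ebf1-KO and kept most of it in Pax5-KO. They were picked for display after their values were seen, and each holds a palindrome. By the difference between the knockouts, the sites near Glcci1, printed above, and near Arhgap12 and Tusc1, not printed, belong to the same group. Of these, only the Tusc1 site holds a palindrome within 100 bp of its centre. The printed sets therefore do not compare palindrome shares.
Lrrk2 site, chr15:91634320-91634420: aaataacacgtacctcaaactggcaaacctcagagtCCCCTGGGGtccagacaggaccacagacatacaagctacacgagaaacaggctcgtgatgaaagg
Snord17 site, chr2:144239475-144239575: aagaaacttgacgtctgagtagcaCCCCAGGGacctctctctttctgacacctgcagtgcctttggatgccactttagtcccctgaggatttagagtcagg
Epas1 site, chr17:86703440-86703540: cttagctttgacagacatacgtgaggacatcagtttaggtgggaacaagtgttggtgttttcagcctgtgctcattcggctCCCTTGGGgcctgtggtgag

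The third set holds EBF1-only sites at the starts of V segments of the immunoglobulin kappa light chain locus, Igk. The centre lies 58 bp downstream of the start at Igkv2-137, and 80 and 94 bp upstream of it at Igkv2-109 and Igkv1-35. The sites printed were chosen for holding both palindrome and octamer, at functional V segments, as the strongest of these in WT. The motifs stand side by side, with 6 bases between them in each. Of the 69 EBF1-only sites in Igk, 43.5% hold the palindrome and 33.3% the octamer within 100 bp of the centre. Within 50 bp, 7 hold both.
Igkv2-137 site, chr6:67555505-67555605: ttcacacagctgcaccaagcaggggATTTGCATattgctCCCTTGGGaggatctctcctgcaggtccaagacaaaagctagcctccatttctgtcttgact
Igkv2-109 site, chr6:68302297-68302397: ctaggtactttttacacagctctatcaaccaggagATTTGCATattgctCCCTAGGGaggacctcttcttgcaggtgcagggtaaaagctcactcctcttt
Igkv1-35 site, chr6:70011717-70011817: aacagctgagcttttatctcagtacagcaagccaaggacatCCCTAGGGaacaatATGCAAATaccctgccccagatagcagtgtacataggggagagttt

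The fourth set comes from repeated DNA. The first pair lies in copies of the SINE element B3 and the last in a ZP3AR satellite.
Ppp2r5a site (B3), chr1:191458512-191458612: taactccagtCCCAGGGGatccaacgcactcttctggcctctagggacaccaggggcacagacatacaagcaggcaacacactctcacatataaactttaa
Mrpl42 site (B3), chr10:95475522-95475622: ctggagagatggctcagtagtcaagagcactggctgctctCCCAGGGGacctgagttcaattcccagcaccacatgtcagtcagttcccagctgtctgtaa
ZP3AR satellite site, chr5:136641362-136641462: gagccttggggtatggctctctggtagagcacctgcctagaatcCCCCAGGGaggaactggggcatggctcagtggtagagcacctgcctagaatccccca

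Searched within 100 bp of the centre on either side, the palindrome CCCNNGGG was found in 1537 of the 2735 sites that could be scanned, or 56.2%. It reads the same on both strands. Over all 14372 bound sites scanned the share was 35.8%. Where a site held it, the palindrome lay a median of 21.5 bp from the centre, and in 826 of the 1537 it lay within 25 bp. A stricter form, the palindrome preceded by T and followed by A, was present in 28.6% of the sites, and 281 sites held 2 or more copies of the palindrome. The commonest palindromes with their flanks were TCCCCAGGGA, in 189 sites, TCCCAGGGGA, in 169, and TCCCAAGGGA, in 108, of 1162 sites with one within 50 bp of the centre.

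Letters of other factors were also searched and are given beside their share over all bound sites. On either strand, the E protein motif CAGGTG was in 17.5% of the sites (19.7% of all bound sites), the RUNX motif TGTGGTT in 8.70% (12.2%) and the PU.1 motif GAGGAAGT in 5.59% (4.94%). AGGGGGC or AGGTGGC, a part of the CTCF motif, was in 10.1% (9.34%). The octamer was in 3.84% (2.57%), and GCGTGACC, a core of the PAX5 motif, in 0.22% (1.00%). These matches describe letters and do not show binding.

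On the authors' scaling, accessibility of these sites was lower in Ebf1-KO than in WT. The median signal over the 2736 sites was 7.19, 5.41 and 6.47 in the 3 WT libraries, 1.95, 2.12 and 2.24 in Ebf1-KO and 3.88, 3.45 and 3.48 in the Pax5-KO libraries. The library medians of the genotypes did not overlap, and those of Pax5-KO lay between the other 2 groups. Over all bound sites the library medians were 7.41 to 10.45 in WT, 2.73 to 3.03 in Ebf1-KO and 3.48 to 3.88 in the Pax5-KO libraries. On that wider set the Pax5-KO and Ebf1-KO medians were closer to each other than among the EBF1-only intergenic sites.

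**Figure D1:**
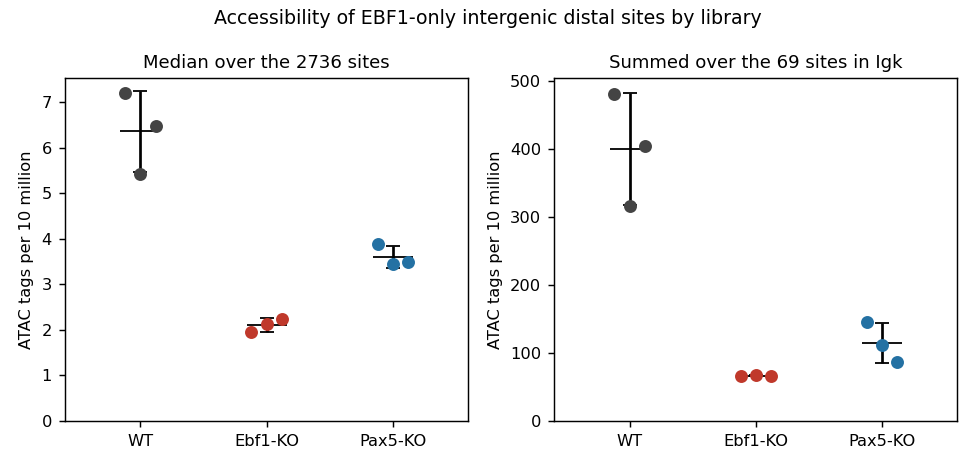
ATAC tags per 10 M by genotype, with 1 point per library and the mean and SD as a bar with whiskers. The left panel gives the median over the 2736 sites, where WT libraries lie at 5.41 to 7.19, Pax5-KO at 3.45 to 3.88 and Ebf1-KO at 1.95 to 2.24, and the right panel the sum over the 69 sites in Igk, where the genotypes do not overlap either.

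Site by site, 2730 of the 2736 had at least 10 reads over the 9 libraries and were tested with limma, with p adjusted over all 14365 bound sites tested. In Ebf1-KO over WT, 1454 of the 2730 (53.3%) were lower at an adjusted p under 0.05 and 57 (2.09%) were higher. Over all bound sites, 51.1% were called lower and 3.28% higher, so the share among the EBF1-only intergenic sites was near the background. The median log2 change over the sites, computed as log2((mean + 0.5)/(mean + 0.5)), was -0.98, with quartiles of -1.96 and -0.32, against -0.89 over all bound sites.

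In Pax5-KO a smaller share of these sites than of all bound sites was called lower. Over WT, 1095 of the 2730 (40.1%) were lower and 87 (3.19%) higher, below the background of 51.5% lower and above that of 2.11% higher. Their median log2 change was -0.59, against -0.81 over all bound sites. In Ebf1-KO over Pax5-KO, 573 (20.99%) were lower and 88 (3.22%) higher, where the background was 12.6% lower and 9.06% higher. The 88 rises fell to 33 without Ebf1-KO replicate 3, 50 without Ebf1-KO replicate 2, 53 without Pax5-KO replicate 2 and 49 without Pax5-KO replicate 3. The median log2 difference between the knockouts was -0.35 for these sites and -0.03 over all bound sites. Sites whose libraries of the 2 genotypes did not overlap numbered 1541 lower and 83 higher in Ebf1-KO over WT, 1167 and 113 in Pax5-KO over WT, and 819 and 191 in Ebf1-KO over Pax5-KO. The shares over all bound sites are not given beside these counts, so they are not read as a result about these sites.

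How many sites are called lower or higher than in WT depends on how the libraries are scaled. With TMM scaling, which sets the typical bound site equal between libraries, 836 sites were lower and 367 higher in Ebf1-KO over WT, so that 69.5% of calls were falls instead of 96.2%. Over all bound sites falls made up 59.4% of calls instead of 94.0%. For Pax5-KO over WT the split turned, with 378 lower and 438 higher, and falls made up 46.3% of calls instead of 92.6%. Over all bound sites it did not turn, with 3055 lower and 1979 higher, or 60.7% falls instead of 96.1%. The comparison between the knockouts moved less, to 693 lower and 137 higher, or 83.5% falls instead of 86.7%. There falls made up 54.6% of calls over all bound sites, instead of 58.3%. With quantile normalization, which gives every library the same distribution over the bound sites, the split turned for Ebf1-KO over WT too, with 598 lower and 607 higher and a median log2 change of 0.15. Over all bound sites it turned as well, with 3128 lower and 3780 higher and a median of 0.19. For TMM scaling the deposited values were multiplied by 0.56 to 0.77 in WT and by 1.15 to 1.33 in the knockouts. The scaled values follow the authors' library totals, and which scaling is right was not tested.

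Other classes of bound sites give the context for these shares. EBF1-only distal sites inside introns, 2761 in number, had 54.9% lower in Ebf1-KO over WT, 38.6% lower in Pax5-KO over WT and 22.6% lower in Ebf1-KO over Pax5-KO, each within 2 percentage points of the intergenic sites. Intergenic distal sites bound by PAX5 alone, 2206 in number, had 54.4%, 62.1% and 2.50%, and 14.8% of them were higher in Ebf1-KO than in Pax5-KO. Intergenic distal sites with both factors, 675 in number, had 78.2%, 79.4% and 24.6%. Their median WT signal was 20.8, against 6.38 at the EBF1-only intergenic sites and 7.46 at the PAX5-only ones. The palindrome was in 58.8% of the intronic, 6.80% of the PAX5-only and 40.6% of the shared sites. These differences between classes are descriptions and were not tested.

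Sites with stronger EBF1 peaks were more accessible in WT and were called lower more often. The peak score, which is the authors' own from the re-analysed ChIP data, ran from 4.52 to 206.2 with a median of 11.8. From the lowest to the highest score quartile, divided at 8.28, 11.8 and 19.1, the median WT signal was 3.67, 5.30, 7.0 and 11.6. In Ebf1-KO it was 1.87, 2.03, 2.22 and 2.13. Thus the quartiles differed in WT and were close to each other in Ebf1-KO. The share called lower in Ebf1-KO over WT was 30%, 45.1%, 62.4% and 77.3%. Under TMM scaling these shares were 13.9%, 22.5%, 32.9% and 54.2%, in the same order. In Ebf1-KO over Pax5-KO the share lower was 8.75%, 15.8%, 22.2% and 37.9%. Signal in WT rose along with the score, and its part in this order was not tested.

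Across the 2736 sites, score and log2 change in Ebf1-KO over WT correlated at Pearson r -0.31 and Spearman rho -0.37. WT signal and the same change correlated at -0.40 and -0.49. These correlations are over sites that share libraries, and WT signal enters both of its axes.

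The shares also differed by the palindrome, in the comparisons that involve Pax5-KO more than in Ebf1-KO over WT. Sites with it had a lower median WT signal than sites without it, 5.41 against 7.63. They were called lower in Ebf1-KO over WT about as often, in 53.8% against 52.6%. They were called lower less often in Pax5-KO over WT, in 34.6% against 47.2%, and more often in Ebf1-KO over Pax5-KO, in 25.7% against 14.97%. Calls higher in Ebf1-KO than in Pax5-KO went the other way, at 1.57% with the palindrome and 5.35% without. With TMM scaling the order of these shares stayed, at 10.0% against 18.7% lower in Pax5-KO over WT and 30.1% against 19.4% lower in Ebf1-KO over Pax5-KO. The same order held within each score quartile. In the highest, 41.6% of sites with the palindrome and 29.95% of those without were lower in Ebf1-KO than in Pax5-KO. In the lowest the shares were 12.5% and 5.33%. None of these differences between groups of sites was tested.

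**Figure D2:**
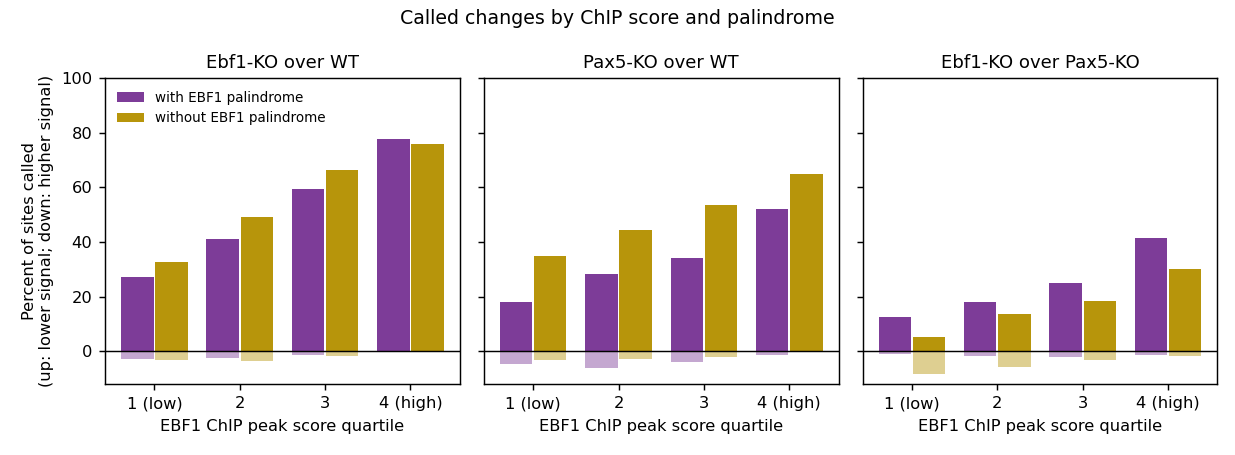
Percent of EBF1-only intergenic sites called lower (bars up) or higher (pale bars down) at a limma adjusted p under 0.05, by quartile of EBF1 peak score and by presence of the palindrome CCCNNGGG within 100 bp of the centre, in the 3 comparisons, with the authors' scaling. In Ebf1-KO over Pax5-KO the bars with the palindrome stand above those without in each quartile, for example 41.6% against 29.95% in the highest, and the counts of falls and rises against WT change with TMM scaling as given in the text.

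The share also varied with distance to the nearest start. Within 10 kb, 46.6% of 638 sites were lower in Ebf1-KO over WT, from 10 to 50 kb 53.1% of 1172, from 50 to 100 kb 60.04% of 450, and beyond 100 kb 56.1% of 476. Sites annotated as CpG islands, 59 in number, stood apart, with median signals of 18.4 in WT, 12.4 in Ebf1-KO and 10.7 in the Pax5-KO libraries. Of these, 33.9% were called lower in Ebf1-KO over WT, and under TMM scaling 44.1% were called higher instead, beside 20.3% of all bound sites. Genes with a single site had 47.9% of their sites lower, and genes with 4 or more had 59.1%, beside 51.1% of all bound sites. The latter genes include Rprl1, 4930515G16Rik and Rpia, with 36, 20 and 13 sites, all in the Igk locus described below. Of these, 18, 17 and 9 were lower. The share for genes with 2 or 3 sites is not given, so no trend with the number of sites is read.

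The sites with the largest falls were nearly closed in both knockouts. The site near Kcnj2, an inward-rectifier potassium channel gene whose start lies 752 kb away, had signals of 97.3, 40.7 and 71.2 in WT. It had 1.17, 1.21 and 2.24 in Ebf1-KO and 2.47, 1.33 and 3.91 in the Pax5-KO libraries. The WT libraries lay far above both knockouts. The log2 change was -4.74 in Ebf1-KO over WT (SE 0.31, limma adjusted p = 1.04e-24) and -4.29 in Pax5-KO over WT (SE 0.31, adjusted p = 6.38e-22). Here and below, log2 changes are on the log2(value + 1) scale, so they understate falls that end near 0.

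A site 552 kb from Kctd16, an auxiliary subunit of GABA-B receptors, showed the largest fall in both comparisons with WT. Its signals were 78.4, 39.6 and 52.8 in WT, 1.17, 0.91 and 0 in Ebf1-KO and 1.41, 0.80 and 0.43 in the Pax5-KO libraries. The log2 changes were -5.12 (SE 0.34, limma adjusted p = 4.18e-24) and -4.92 (SE 0.34, adjusted p = 8.88e-23). The other sites of this kind lay near Mir1187, Gm38403, Acvr2a and Neto1 for Ebf1-KO, with log2 changes of -4.86 to -4.56. For Pax5-KO they lay near Gm38403, Neto1, Amot, Cst11 and Sema6a, with log2 changes of -4.61 to -4.30. Their WT signals reached from 17.4, near Amot in WT replicate 2, to 85.6, near Gm38403 in WT replicate 1. In no knockout library did any of these sites exceed 4.24.

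Most of these genes had little RNA. Kctd16, Mir1187 and Cst11 were listed at 0 in all 9 RNA libraries, and Gm38403, Neto1, Amot, Sema6a and Kcnj2 stayed under 8 in every one. Acvr2a, the activin type II receptor gene, was the exception, with RNA of 562, 451 and 432 in WT, 59.1, 77.7 and 54.3 in Ebf1-KO and 108, 110 and 85.1 in the Pax5-KO libraries. Its site lay 664 kb away.

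The largest falls between the knockouts were at 6 sites that were far lower in Ebf1-KO than in Pax5-KO. The site 38.9 kb upstream of Lrrk2, a leucine-rich repeat kinase gene, had signals of 48.3, 31.3 and 48.2 in WT and 31.4, 25.97 and 24.8 in Pax5-KO. In Ebf1-KO it had 1.95, 1.82 and 0.64. The Pax5-KO libraries reached the range of WT, and those of Ebf1-KO lay far below both. The log2 difference between the knockouts was -3.56 (SE 0.27, limma adjusted p = 2.89e-19), and the change in Ebf1-KO over WT was -4.16 (SE 0.27, adjusted p = 1.66e-24).

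RNA of the genes near these sites did not follow one course. Lrrk2 RNA was 240, 266 and 248 in WT, 23.1, 26.6 and 22.7 in Pax5-KO, and 0.28, 0 and 0.34 in Ebf1-KO, so that it fell in Pax5-KO as well. Glcci1, a glucocorticoid-induced gene, had a site at 41.8, 23.1 and 24.6 in WT, 0, 0.30 and 1.28 in Ebf1-KO and 20.46, 14.8 and 14.8 in the Pax5-KO libraries. The difference between the knockouts there was -3.61 (SE 0.30, limma adjusted p = 1.30e-17). Glcci1 RNA was 719, 619 and 619 in WT, 116, 125 and 116 in Pax5-KO, and 3.30, 1.47 and 1.55 in Ebf1-KO. For both genes the order WT, Pax5-KO, Ebf1-KO was the same in accessibility and RNA.

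The site near Snord17 had 42.5, 22.8 and 28.7 in WT, 32.4, 28.6 and 21.7 in Pax5-KO, and 2.34, 0.91 and 1.28 in Ebf1-KO. The difference between the knockouts was -3.53 (SE 0.28, limma adjusted p = 8.23e-19). The site near Epas1, the gene of the hypoxia factor HIF-2 alpha, had 32.01, 12.2 and 19.7 in WT, 24.7, 20.1 and 19.1 in Pax5-KO, and 0.78, 1.21 and 1.28 in Ebf1-KO. Epas1 RNA stayed under 7 in every library. At both sites WT and Pax5-KO overlapped and Ebf1-KO lay apart. The remaining members of the group, near Arhgap12 and Tusc1, differed between the knockouts by -3.51 and -3.25.

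Some sites opened. A site 4.84 kb from Amn1 had signals of 7.84, 7.12 and 5.18 in WT, 44.0, 46.3 and 59.5 in Ebf1-KO and 14.5, 14.1 and 5.65 in the Pax5-KO libraries. It rose by 2.73 on the log2 scale in Ebf1-KO over WT (SE 0.28, limma adjusted p = 6.60e-15), and the groups did not overlap. Next came sites near Glipr1, Pik3r1, Rasgrp1, Rbm38 and Gpr25, with log2 changes of 1.91 to 1.66. Pik3r1 encodes the regulatory subunit of PI3 kinase, and its RNA rose too, from 664, 892 and 923 in WT to 2945, 3063 and 3349 in Ebf1-KO.

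At Rasgrp1, an activator of Ras in lymphocytes, accessibility and RNA moved in opposite directions. Its site, 104 kb upstream, had 7.19, 6.27 and 6.21 in WT, 20.6, 26.3 and 25.6 in Ebf1-KO and 14.5, 11.7 and 11.3 in the Pax5-KO libraries, a rise of 1.73 in Ebf1-KO over WT (SE 0.27, limma adjusted p = 2.23e-08). Rasgrp1 RNA was 842, 888 and 1044 in WT, 1.65, 1.83 and 0.86 in Ebf1-KO and 73.2, 105 and 125 in the Pax5-KO libraries. The RNA groups did not overlap, and the fall passed the test in both knockouts.

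The largest rises in Pax5-KO over WT included sites near Utp6, Tex29, Zfat, Pax8 and Mir1a-2, with log2 changes of 2.62 to 1.62. The site near Utp6, a ribosome biogenesis gene, had 1.31, 1.42 and 2.07 in WT, 16.9, 14.3 and 13.5 in Pax5-KO and 2.34, 5.14 and 4.16 in Ebf1-KO (log2 change 2.62, SE 0.33, limma adjusted p = 5.10e-11). The site near Tex29 had 3.27, 3.42 and 1.29 in WT, 19.4, 14.6 and 12.2 in Pax5-KO, and 0.78, 2.12 and 0.64 in Ebf1-KO. It held 2 palindromes and had a peak score of 40.6. There Pax5-KO lay above WT, and the difference between the knockouts was -2.95 (SE 0.35, limma adjusted p = 5.83e-11).

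A last group was higher in Ebf1-KO than in Pax5-KO, near Amn1, Tomm20, Slc2a1, Antxr2, Abcc2 and Irf2bp2, with log2 differences of 2.13 to 1.32. Of these 6 sites none held the palindrome. The site near Tomm20, a mitochondrial import receptor gene, had 34.6, 19.4 and 34.4 in WT, 19.9, 20.3 and 26.9 in Ebf1-KO and 6.35, 6.36 and 5.21 in the Pax5-KO libraries. Ebf1-KO overlapped WT there, and Pax5-KO lay below both (difference 1.73, SE 0.27, limma adjusted p = 1.70e-07).

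**Figure D3:**
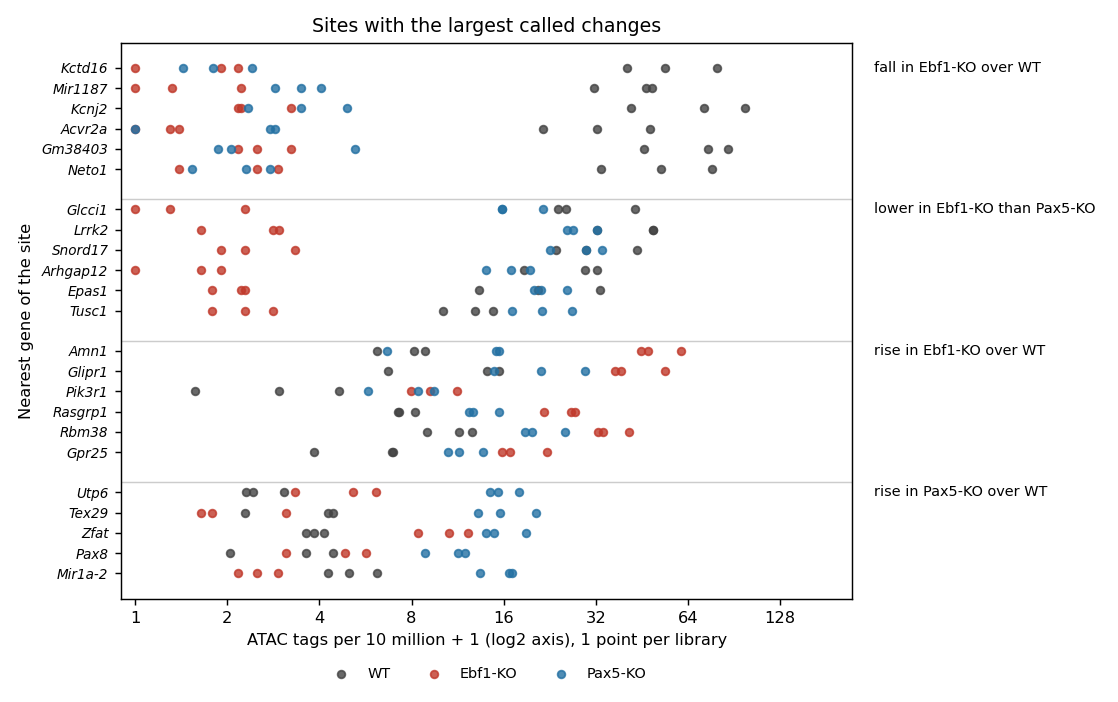
ATAC tags per 10 M plus 1, on a log2 axis, at the sites with the largest called changes, with 1 point per library coloured by genotype and the nearest gene of each site on the vertical axis. In the first block both knockouts lie far below WT, in the second Pax5-KO lies with or near WT and Ebf1-KO apart, as near Lrrk2 (24.8 to 31.4 in Pax5-KO, 0.64 to 1.95 in Ebf1-KO), and the last blocks hold the rises.

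The 3 sites with the highest WT signal were near Gm7102, Zfp960 and Kcnj2. Gm7102 had a site at 138, 95.7 and 114 in WT, 71.3, 82.6 and 87.1 in Ebf1-KO and 68.1, 62.3 and 56.5 in the Pax5-KO libraries, with a log2 change of -0.88 in Pax5-KO over WT (SE 0.29, limma adjusted p = 0.00848). This change turned to 0.05 with TMM scaling. At Zfp960 the WT values of 92.1, 42.5 and 74.8 overlapped those of both knockouts. Thus high accessibility in WT did not go with a large fall at each of them.

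Genes known from B-cell development were looked up by a list, and the most accessible site of each gene described is given. Enpep encodes the surface peptidase BP-1, a marker of late pro-B and pre-B cells. Its site lay 1.72 kb upstream, at chr3:129334333-129334603 in a B3 element, with 46.4, 29.1 and 41.2 in WT, 1.17, 0.61 and 1.92 in Ebf1-KO and 0.71, 1.33 and 2.17 in the Pax5-KO libraries. Both knockouts were near 0, with log2 changes of -4.17 (SE 0.33, limma adjusted p = 4.51e-20) and -4.07 (SE 0.33, adjusted p = 3.88e-19). Enpep RNA was 4827, 5815 and 5586 in WT and between 1.83 and 5.50 in all knockout libraries.

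Lef1, a transcription factor of the Wnt pathway active in pro-B cells, had its strongest site 55.5 kb upstream, at chr3:131054614-131054884. There the signal was 50.3, 28.2 and 37.3 in WT, 1.17, 1.51 and 1.60 in Ebf1-KO and 7.41, 8.48 and 8.25 in the Pax5-KO libraries. The genotypes were separate, with log2 changes of -3.99 in Ebf1-KO over WT (SE 0.29, limma adjusted p = 1.72e-22) and a difference of -1.90 in Ebf1-KO over Pax5-KO (SE 0.29, adjusted p = 8.75e-08). Lef1 RNA showed the same order, with 1492, 1544 and 1633 in WT, 36.9, 24.2 and 24.3 in Ebf1-KO and 207, 199 and 234 in the Pax5-KO libraries.

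Runx1, a transcription factor of blood cells, had a site that was nearly closed in Ebf1-KO. This site, 95.9 kb upstream, had 23.5, 19.7 and 19.2 in WT, 0.78, 1.51 and 1.92 in Ebf1-KO and 6.70, 8.75 and 7.38 in the Pax5-KO libraries, a log2 change of -3.20 in Ebf1-KO over WT (SE 0.30, limma adjusted p = 2.25e-16). Runx1 RNA was 1961, 2220 and 2296 in WT, 2324, 2212 and 2201 in Ebf1-KO and 2969, 3624 and 4001 in the Pax5-KO libraries. The RNA of WT and Ebf1-KO overlapped, and the change between them did not pass the limma test on the authors' scaling. With TMM scaling this RNA change was -0.27 and was called (limma adjusted p = 0.012), and edgeR and DESeq2 gave -0.27 and -0.25, also called. In Pax5-KO the RNA of every library lay above WT. The site was lower there (log2 change -1.34, SE 0.30, limma adjusted p = 9.26e-05), a call lost with TMM scaling (-0.47). Of the other sites annotated to Runx1, 1 was lower in Ebf1-KO over WT and 1 was not called, while under TMM scaling the former was not called and the latter was higher.

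Foxo1, which drives Rag expression, had 3 sites, all lower in Ebf1-KO over WT, with log2 changes of -1.98, -1.32 and -1.70. The strongest, with 37.2, 20.2 and 32.1 in WT, had 10.9, 9.38 and 13.1 in Ebf1-KO and 6.70, 5.83 and 7.38 in the Pax5-KO libraries, and its change in Ebf1-KO was -0.46 and no longer called with TMM scaling. Foxo1 RNA was 1581, 2583 and 2730 in WT, 34.1, 34.4 and 32.1 in Ebf1-KO and 530, 669 and 777 in the Pax5-KO libraries. RNA was lowest in Ebf1-KO, whereas the strongest site was lowest in Pax5-KO, by a difference of 0.66 that did not pass the test (SE 0.27, limma adjusted p = 0.0676) but was called with TMM scaling (0.64, limma adjusted p = 0.0219).

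Ccr9, a chemokine receptor of thymus-homing cells, had far more RNA in both knockouts than in WT. RNA was 21.03, 14.8 and 16.3 in WT, 11636, 9772 and 10373 in Ebf1-KO and 3611, 3709 and 4198 in the Pax5-KO libraries. Its site, 4.01 kb upstream, had 27.4, 11.97 and 15.3 in WT, 6.23, 6.35 and 9.60 in Ebf1-KO and 10.2, 8.75 and 7.82 in the Pax5-KO libraries. The site's log2 changes were -1.14 (SE 0.28, limma adjusted p = 3.40e-04) and -0.88 (SE 0.28, adjusted p = 0.00619), and neither kept its call with TMM scaling, under which they were -0.31 and -0.01. In Pax5-KO over WT the sign turned with quantile normalization (0.17) and edgeR (0.022), so no direction is given for this site. The most accessible sites near Bach2, Bcl6, Cxcr4, Hes1, Sox4 and Tcf3 had log2 changes of -0.93 to -0.65 in Ebf1-KO over WT, all called. For these 6 sites the sign turned or the call was lost under TMM scaling, so no direction is given for them.

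The sites were also read by gene list. The lists and the sites were drawn up with earlier results of these data known, and the counts are descriptions. They are to be read against the 51.1% of all bound sites lower in Ebf1-KO over WT, or 29.7% with TMM scaling. Among 23 B-lineage transcription factors, 9 had sites, and 15 of their 19 sites were lower in Ebf1-KO over WT and none higher. Of the 19, 11 were lower in Pax5-KO over WT, where 51.5% of all bound sites were. With TMM scaling 7 of the 19 were lower and 2 higher in Ebf1-KO over WT, and 3 and 1 in Pax5-KO over WT. Under that scaling 20.3% of all bound sites were higher in Ebf1-KO over WT, and 21.3% lower and 13.8% higher in Pax5-KO over WT. The 15 include the sites near Bach2, Bcl6, Sox4 and Tcf3 named above as having no fixed direction. RNA of 6 of the 9 genes was lower in Ebf1-KO, against 14.4% of all genes called lower and 40.8% called higher in that comparison. Besides those above, Ets1, a lymphoid factor, fell in RNA from 1775, 2158 and 2164 in WT to 372, 385 and 366 in Ebf1-KO. Its site fell from 13.1, 8.55 and 8.29 to 2.73, 3.33 and 4.48 (log2 change -1.27, SE 0.34, limma adjusted p = 7.95e-04), a call lost with TMM scaling (-0.50). Bcl11a RNA fell as well, while its only site had signals under 2 in every library and was not called.

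Among 20 genes of the pre-B receptor and the B-cell receptor, 8 had 1 site each, and 6 of the 8 sites were lower in Ebf1-KO over WT and 1 in Pax5-KO over WT. With TMM scaling 1 was lower and 1 higher in Ebf1-KO over WT, and in Ebf1-KO over Pax5-KO 3 were lower. Vpreb2, a surrogate light chain gene, had a site 10.9 kb away with 25.5, 18.5 and 19.2 in WT, 9.35, 6.66 and 8.64 in Ebf1-KO and 15.5, 13.2 and 15.2 in the Pax5-KO libraries. Vpreb2 RNA was 188, 195 and 226 in WT, 0.28, 0.37 and 0.34 in Ebf1-KO and 240, 248 and 378 in the Pax5-KO libraries. Its RNA was thus lost in Ebf1-KO alone, and its site differed between the knockouts by -0.77 (SE 0.27, limma adjusted p = 0.0252). Blk, a Src-family kinase of B cells, showed a like order, with RNA of 35.9, 29.2 and 43.1 in WT, 0.28, 0.37 and 0.69 in Ebf1-KO and 50.7, 56.1 and 56.7 in the Pax5-KO libraries. Its site was weak, at 1.96 to 3.88 in WT, 0.32 to 1.21 in Ebf1-KO and 2.82 to 5.04 in the Pax5-KO libraries. Blnk, an adaptor below the receptor, lost its RNA in both knockouts, from 1336, 1010 and 1108 to at most 1.38, and its weak site was called lower in Ebf1-KO (log2 change -1.38, SE 0.39, limma adjusted p = 0.0017), though not with TMM scaling (-0.89). The Cr2 site, with 86.2, 51.3 and 69.9 in WT, was not called in either knockout, and its groups overlapped.

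The lists of other programmes are given in the same way. Of 19 genes of cytokine signalling and survival, 9 had 14 sites, of which 4 were lower in Ebf1-KO over WT and 1 in Pax5-KO over WT. Among them, Socs1, an inhibitor of cytokine signalling, had a site with 19.6, 17.9 and 18.6 in WT, 6.23, 9.38 and 10.2 in Ebf1-KO and 11.6, 11.1 and 13.03 in the Pax5-KO libraries, while its RNA rose from 2.80, 2.11 and 2.85 to 34.9, 12.5 and 21.7 in Ebf1-KO. Of 18 genes of adhesion and homing, 7 had 13 sites, of which 5 were lower in Ebf1-KO over WT and 6 in Pax5-KO over WT. With TMM scaling none of the 14 cytokine sites was lower and 1 higher in Ebf1-KO over WT, and none lower and 2 higher in Pax5-KO over WT. Of the 13 adhesion sites, 1 was lower and 3 higher in Ebf1-KO over WT, and 1 lower and 1 higher in Pax5-KO over WT. Under that scaling 29.7% of all bound sites were lower and 20.3% higher in Ebf1-KO over WT, and 21.3% and 13.8% in Pax5-KO over WT. Of 15 myeloid genes, 4 had 5 sites, with 2 lower in Ebf1-KO (1 with TMM scaling), and the RNA of all 4 genes was higher there. The V(D)J recombination list had 1 site, near Hmgb1, the T lineage list 2, near Hes1 and Cd7, and the NK list of 17 genes none. The stem and progenitor list had 1, near Hoxa7, which was called higher in Ebf1-KO over WT, at 13.2, 17.9 and 18.9 against 13.1, 9.12 and 7.25 in WT. Hoxa7 RNA was listed at 0 in the WT libraries and reached 169, 155 and 205 in Ebf1-KO.

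The largest cluster of the sites lay in the Igk locus. Igk, at chr6:67555497-70726966 (3.17 Mb), holds 160 V segments in GENCODE, pseudogenes included, and a kappa light chain is assembled from functional ones. It contained 84 bound sites, of which 69 were EBF1-only, all of them intergenic and distal by the deposited annotation, 6 shared and 9 PAX5-only. The deposited annotation gave these 69 sites to Rprl1 (36), 4930515G16Rik (20) and Rpia (13), none of which is a V segment. In GENCODE, 44 of the 69 (63.8%) lay within 500 bp of a V segment start, each at a different segment. Of those, 28 lay upstream of the start, at a median of 109 bp before it, and 16 downstream. V segments counted as functional genes made up 34 and pseudogenes 10 of the 44.

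Summed over the 69 sites, ATAC signal was 480, 316 and 404 in WT, 66.3, 67.9 and 65.6 in Ebf1-KO and 145, 112 and 86.8 in the Pax5-KO libraries. The means were 400.0 ± 82.4 (SD, n = 3), 66.6 ± 1.16 and 115 ± 29.3, and the 3 genotypes did not overlap. Of 65 sites tested, 44 (67.7%) were lower in Ebf1-KO over WT and none higher, and 38 (58.5%) were lower in Pax5-KO over WT. Over all bound sites 51.1% and 51.5% were lower in these comparisons. With TMM scaling 34 and 26 of the 65 were lower, beside 29.7% and 21.3% of all bound sites. Between the knockouts, 9 of the 65 were lower in Ebf1-KO and none higher, where the background was 12.6% lower and 9.06% higher. The share lower there was near the background, so it is not read as particular to Igk. The median log2 changes were -1.82 in Ebf1-KO over WT and -1.29 in Pax5-KO over WT. Outside the antigen receptor loci, 53.0% of 2648 sites tested were lower in Ebf1-KO over WT, so the count over all 2736 does not rest on Igk.

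The families of V segments differed in level. The 4 sites at Igkv9 segments had a median WT signal of 13.8, against 0.64 in Ebf1-KO and 1.78 in the Pax5-KO libraries, and all 4 were lower in both knockouts. The 3 at Igkv14 segments had 13.5, 0.78 and 2.54. The 9 at Igkv1 segments, all with a palindrome, had 3.87, 0.80 and 1.64, and 6 were lower in Ebf1-KO over WT. In contrast, the 14 at Igkv4 segments had 0.60, 0.34 and 0.50, with 4 under the read minimum, although 10 of them held the palindrome. V segments of one family resemble each other in sequence, as do copies of a repeat, and the labels and headers do not say how reads that match several copies were counted.

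At Igkv2-137 the signal was 15.03, 10.54 and 10.9 in WT, 0.78, 2.42 and 0.96 in Ebf1-KO and 11.99, 9.54 and 6.08 in the Pax5-KO libraries. Here Pax5-KO overlapped WT and Ebf1-KO lay below, with a difference between the knockouts of -2.11 (SE 0.32, limma adjusted p = 1.03e-07). At Igkv1-35, with 9.80, 10.3 and 11.9 in WT, both knockouts lay below, at 0.39, 1.82 and 0.96 in Ebf1-KO and 3.53, 0.53 and 2.17 in the Pax5-KO libraries. Both sites carry the octamer and the palindrome shown above.

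**Figure D4:**
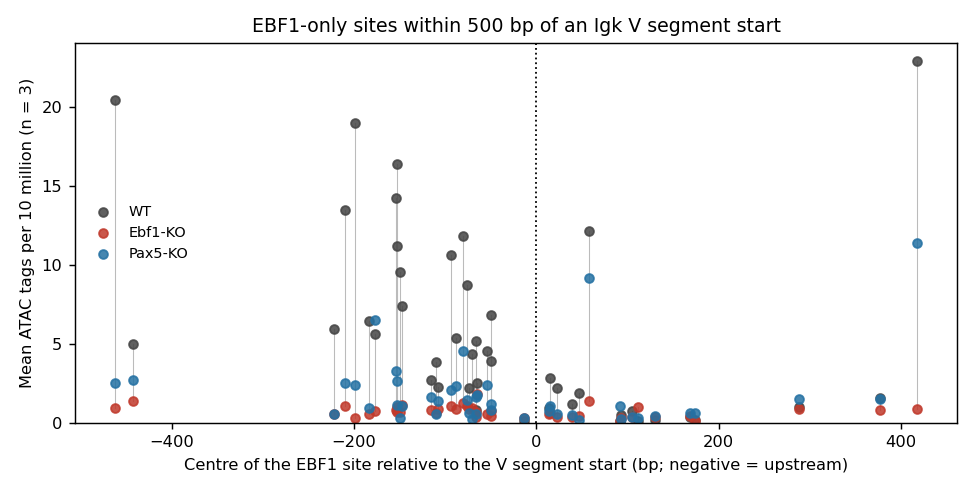
Mean ATAC tags per 10 M (n = 3) at the 44 EBF1-only sites within 500 bp of an Igk V segment start, against the distance of the site's centre from that start, with WT, Ebf1-KO and Pax5-KO as points and a line joining WT and Ebf1-KO. The tall WT points lie mostly upstream of the start, and Ebf1-KO points lie near 0.

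The octamer was frequent in Igk, where 33.3% of the 69 sites held it within 100 bp of the centre. Octamer and palindrome together within 50 bp of the centre were found in 7 Igk sites, and in all 7 exactly 6 bp lay between them. Outside Igk, 17 sites held both, none with that spacing, which was picked after the sequences had been seen. Sites with the octamer were called lower more often, in 76.0% of 104 in Ebf1-KO over WT and 64.4% in Pax5-KO over WT, against 52.4% and 39.2% of sites without it. Among the 82 outside Igk the shares were 73.2% and 63.4%. With TMM scaling they were 51.9% and 37.5% with the octamer and 29.8% and 12.9% without.

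Repeated DNA carried a part of the palindromes. Of the 2736 sites, 251 were annotated to LTR elements, 197 to SINEs and 153 to LINEs, while 2003 lay in no repeat. The SINE element B3 accounted for 111 sites on 20 chromosomes, of which 86 (77.5%) held the palindrome. Its form was often TCCCAGGGGA, found in 40 of the 68 with a palindrome within 50 bp of the centre. These sites were weakly accessible, with medians of 3.69 in WT, 1.67 in Ebf1-KO and 2.40 in the Pax5-KO libraries, and 42 (37.8%) were lower in Ebf1-KO over WT, below the background of 51.1%. With TMM scaling 22 (19.8%) were lower and 11 (9.91%) higher, beside 29.7% and 20.3% of all bound sites. The median log2 change was then 0.02, so no direction is given for the B3 sites against WT. In Ebf1-KO over Pax5-KO, 19 (17.1%) were lower and none higher, beside 12.6% and 9.06% of all bound sites. With TMM scaling 25 (22.5%) were lower there and none higher, beside 15.5% and 12.9%. Among all EBF1-only sites in B3 elements, 259 in number, 80.3% held the palindrome, and of the 20 PAX5-only sites in B3 elements none did. Both copies printed above were more accessible in WT than the typical B3 site. The Ppp2r5a site had 26.8, 17.1 and 17.6 in WT, 2.34, 2.12 and 2.88 in Ebf1-KO and 7.41, 9.28 and 7.82 in the Pax5-KO libraries, with 3 separate groups. The Mrpl42 site had 13.1, 10.54 and 9.84 in WT and at most 2.12 in any knockout library. In contrast, a B3 site near Pkdcc, with 13.7, 10.54 and 14.5 in WT and 11.7, 10.3 and 14.1 in Ebf1-KO, had overlapping groups and was not called (log2 change -0.10, SE 0.27, limma adjusted p = 0.79).

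The ZP3AR satellite gave a second, local group. All 49 bound sites in it were EBF1-only, and 48 of them held the palindrome. Of the 20 that were intergenic and distal, 19 lay on chromosome 5, within 8.20 Mb, and in the 14 with a palindrome within 50 bp of the centre it read CCCCCAGGGA. Their median signals were 6.10 in WT, 1.74 in Ebf1-KO and 2.78 in the Pax5-KO libraries, and 14 of the 20 were lower in Ebf1-KO over WT, where the background was 51.1%. With TMM scaling 6 of the 20 were lower and 1 higher, where 29.7% of all bound sites were lower and 20.3% higher. The satellite site printed above had 22.2, 12.2 and 14.5 in WT, 0.78, 2.42 and 1.28 in Ebf1-KO and 3.88, 7.69 and 6.95 in the Pax5-KO libraries, and its groups did not overlap.

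RNA of the nearest genes moved in both directions. The median RNA change of all genes was 0.31 in Ebf1-KO over WT, 0.28 in Pax5-KO over WT and 0.05 between the knockouts. The calls rest on the changes as fitted, and the medians and percentiles of RNA change below are given after subtracting these values. Of the 2011 nearest genes 2010 were in the RNA table and 1306 were tested. In Ebf1-KO over WT, 290 (22.2%) were lower and 531 (40.7%) higher, beside 14.4% and 40.8% of all genes. Counts in Pax5-KO over WT were 239 (18.3%) lower and 470 (36.0%) higher, where the background over all 12839 genes tested was 11.9% lower and 34.7% higher. In Ebf1-KO over Pax5-KO, 245 (18.8%) were lower and 282 (21.6%) higher, against 13.3% and 17.5%. With TMM scaling the counts of lower genes rose to 467 in Ebf1-KO over WT and 397 in Pax5-KO over WT. The shares over all genes under that scaling are not given beside these counts. The typical nearest gene did not shift, at a median of -0.04 in both comparisons with WT. The lower tail reached further, with a 10th percentile of -2.42 in Ebf1-KO over WT, against -1.18 over all genes.

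Genes near sites that closed were lower more often than genes near sites that were not called. In Ebf1-KO over WT, 909 sites called lower had a tested nearest gene, and its RNA was lower for 31.2% and higher for 33.2%. Beside the 760 sites not called, RNA was lower for 16.3% and higher for 46.4%, and beside the 36 called higher, for 13.9% and 50.0%. For Pax5-KO over WT the shares with lower RNA were 26.1% of 687, 15.4% of 964 and 11.1% of 54. All bound sites gave 32.5% lower beside sites called lower and 15.3% beside sites not called in Ebf1-KO over WT, so this order was not peculiar to the EBF1-only intergenic sites. A site and its nearest gene share neither library nor a known link, and several sites can share a gene.

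**Figure D5:**
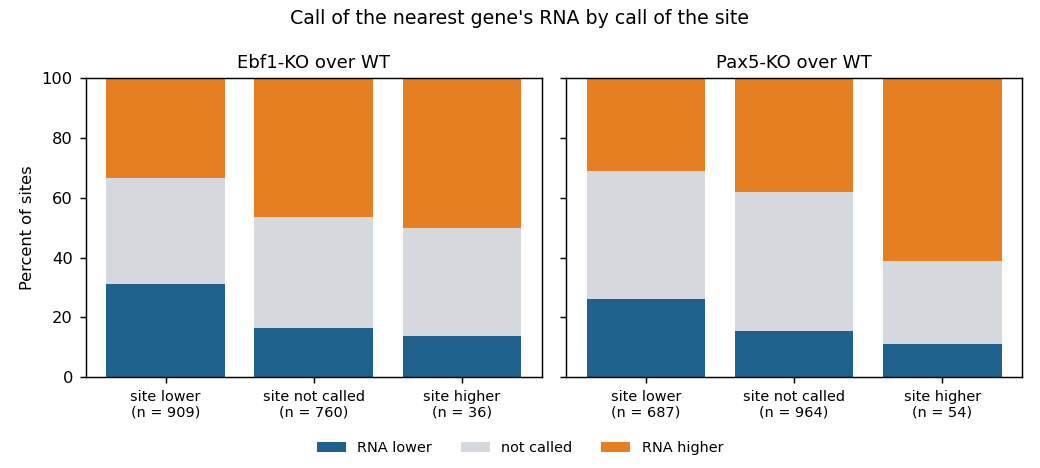
Percent of EBF1-only intergenic sites whose nearest gene's RNA was called lower, not called or higher (limma adjusted p under 0.05), by the ATAC call of the site, in Ebf1-KO over WT and Pax5-KO over WT, with the authors' scaling. Sites called lower have the largest share of genes with lower RNA, 31.2% in Ebf1-KO against 26.1% in Pax5-KO, and in both panels more genes are higher than lower in every group, an excess that other scalings reduce.

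The nearest genes with the largest RNA falls were of mixed kinds. In Ebf1-KO over WT they included Enpep, Cplx2, Crhbp, Gldc and Alpl. Alpl, alkaline phosphatase, had RNA of 889, 1029 and 1097 in WT and at most 1.27 in any knockout library. Gldc, glycine decarboxylase, had 1001, 1245 and 1469 in WT, at most 0.37 in Ebf1-KO and 53.0, 57.04 and 55.1 in the Pax5-KO libraries. Cplx2, a complexin of vesicle fusion, had 2011, 2409 and 2696 in WT, at most 0.55 in Ebf1-KO and 38.2, 52.9 and 74.2 in the Pax5-KO libraries. For the last pair the knockouts differed, with RNA remaining in Pax5-KO. Among falls in Pax5-KO over WT, Blnk and Adgrl2 joined Enpep, Alpl and Crhbp.

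The largest RNA rises among nearest genes included genes of other lineages. In Ebf1-KO over WT they were Ccr9, Mn1, Tyrobp, Adgre1, Slc8a1 and Camk2a. Tyrobp, the DAP12 adaptor of myeloid and NK cells, had RNA of 0.56, 0.70 and 0.63 in WT, 772, 839 and 894 in Ebf1-KO and 98.3, 122 and 142 in the Pax5-KO libraries. Adgre1, the macrophage antigen F4/80, had at most 1.06 in WT, 442, 652 and 586 in Ebf1-KO and 2.56, 1.58 and 4.60 in the Pax5-KO libraries. One of the 2 Tyrobp sites was lower in both knockouts and the other was not called. In Pax5-KO over WT the genes were Jchain, Creb5, Ccr9, Clic5, Camk2a and Nfam1. Jchain, the joining chain of IgM and IgA, had 23.3, 49.0 and 42.2 in WT, 8397, 10569 and 11586 in Ebf1-KO and 11893, 12950 and 12928 in the Pax5-KO libraries.

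The authors' deposited table of EBF1 peaks on genes that were higher in WT than in Ebf1-KO, 849 peaks, held 256 of the sites (9.36%). Of these 186 (72.7%) were lower in Ebf1-KO over WT by limma, with a median log2 change of -1.63. The authors' deposited table of peaks on genes lower in WT, 754 peaks, held 204 (7.46%), of which 91 (44.6%) were lower, with a median of -0.65. These lists were made from RNA of the same genotypes, so they are not independent of the comparison.

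Checks of the labels and of other cell types go with these results. Ebf1 RNA was 3969 ± 634 (SD, n = 3) in WT, 1465 ± 131 in Ebf1-KO and 1515 ± 170 in the Pax5-KO libraries. Exon reads thus remain in Ebf1-KO, and a count over the whole gene cannot show which exons they come from. Pax5 RNA was 1521 ± 179 in WT, 109 ± 17.5 in Pax5-KO and 13.1 ± 3.96 in Ebf1-KO. Markers of other cells moved with genotype. The summed RNA of 9 T-lineage markers was 41.7 to 48.6 in WT, 1513 to 2055 in Ebf1-KO and 1448 to 1980 in the Pax5-KO libraries, with 6 of the 9 under 1 in WT. The 9 NK and innate lymphoid markers summed to 11.8 to 13.5, 1363 to 1407 and 127 to 200, and 8 myeloid markers to 8.81 to 20.47, 724 to 831 and 93.5 to 127. The 13 pro-B markers summed to 26445 to 27724, 11724 to 13682 and 19153 to 24314. The 9 markers of stroma, which the OP9 layer could add, summed to 139 to 322, 491 to 643 and 61.2 to 227. Their part in the accessibility of the sites was not tested.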

How the data were processed

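RNA and ATAC libraries of WT, Ebf1-KO and Pax5-KO pro-B cells (3 each) were grouped by the genotype and number in their titles. Per the file headers, the ATAC signal deposited by the authors is tags over each bound site scaled to 10 M (M, 1000000) per library, and the RNA signal is reads over exons per 10 M mapped reads, on mm10. Per the submitters' processing notes, the tools were DESeq2, edgeR, HOMER and TopHat for RNA, and HOMER and Bowtie2 for ATAC (versions are not given there). The peak score is a score deposited by the authors from re-analysed ChIP data (1 EBF1 set, combined PAX5 sets). The other deposited columns are the distance in bp to the nearest start and, in the authors' peak lists, the focus ratio, a fraction, with medians of 0.72 and 0.73. The peak lists were matched to the sites by centres within 50 bp.

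Whole reads were recovered from the scaled values, and 100% of ATAC values came out whole within 0.1 reads. The main test was limma (trend, two-sided) on log2(value + 1) over 9 libraries, 1 mean per genotype, with Benjamini-Hochberg adjustment over all 14365 sites with at least 10 reads or 12839 genes passing filterByExpr, and calls at an adjusted p under 0.05. It was tested on simulated data. Median changes used 0.5 added to each mean and carry no test. Python 3.11.15 and R 4.3.3 were used, with DESeq2 1.42.0, edgeR 4.0.16 and limma 3.58.1. Alternatives were TMM, quantile, edgeR and DESeq2 scaling, other added values, filters and windows, the replicate block, and each library left out.

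Named sites were, per comparison, the 6 largest called falls and rises with separate groups and a mean of at least 5, the 3 sites with highest WT signal, and the strongest site of 12 listed genes. A few of these are not reported here. Named nearest genes were those of named sites and the 6 largest called RNA falls and rises with a mean of at least 50. Members, lists and rules were chosen with earlier results of these data known, and other genes named in the gene-list paragraphs were picked after their values were seen. Same-numbered RNA libraries deviated together in all 9 pairs of groups and numbers (correlations 0.12 to 0.44), so the numbers pair them. The blocked fit changed no count of calls by over 1.5 times, and among named genes it added calls for Amn1, Bcl6, Gm7102, Slc2a1 and Zfat. Sequences and coordinates are GRCm38 (mm10), with segments from GENCODE M21.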

Additional observations from a re-analysis of the deposited data

How the results depend on the processing

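Counts against WT depend on scaling, since TMM, quantile, edgeR and DESeq2 scaling centre the bound sites and the authors' totals do not. In that order, sites lower in Ebf1-KO over WT numbered 836, 598, 851 and 688, and sites higher 367, 607, 398 and 333. The shares lower were 30.6%, 21.9%, 31.2% and 25.2%, beside 29.7%, 21.8%, 30.3% and 24.4% of all bound sites. The shares higher were 13.4%, 22.2%, 14.6% and 12.2%, beside 20.3%, 26.3%, 21.6% and 19.1% of all bound sites. For Pax5-KO over WT 378, 312, 411 and 284 sites were lower and 438, 662, 522 and 325 higher. There the shares lower were 13.8%, 11.4%, 15.1% and 10.4%, beside 21.3%, 18.9%, 22.1% and 17.3% of all bound sites. With quantile normalization the median over the sites was 0.15 in Ebf1-KO over WT, a turned sign, beside 0.19 over all bound sites. Sites higher in Ebf1-KO over Pax5-KO numbered 137 with TMM, or 5.02%, beside 12.9% of all bound sites. Nearest genes with lower RNA were 467, 472, 459 and 454 in Ebf1-KO over WT and 397, 422, 396 and 398 in Pax5-KO over WT. With edgeR on the authors' library totals, added after seeing the data, sites lower and higher were 1434 and 55, 1085 and 84, and 546 and 78 in the 3 comparisons, so the difference goes with the scaling and not with the test. The median change in Ebf1-KO over WT was -1.14 with 0.1 added to the means, -0.69 with 2 added, -0.22 with TMM and -1.27 over sites with at least 90 reads. In Pax5-KO over WT it was 0.22 with TMM, a turned sign, and -0.79 with at least 90 reads, and in Ebf1-KO over Pax5-KO -0.22 with 2 added. The palindrome share was 28.6% with flanking T and A, 42.5% within 50 bp of the centre and 62.8% within 200 bp of it.

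Leaving out 1 library at a time gave 1306 to 1507 sites lower and 36 to 67 higher in Ebf1-KO over WT, 907 to 1187 and 52 to 85 in Pax5-KO over WT, and 460 to 609 and 33 to 124 in Ebf1-KO over Pax5-KO. Median changes ran from -1.08 to -0.93, -0.71 to -0.53 and -0.38 to -0.32. Nearest genes ran from 257 to 303 lower and 455 to 561 higher, 214 to 249 and 359 to 508, and 208 to 257 and 227 to 326. Counts of higher sites moved by over 1.5 times without Ebf1-KO replicate 3 (36 over WT, 33 over Pax5-KO), without Pax5-KO replicate 1 (52 in Pax5-KO over WT), and in Ebf1-KO over Pax5-KO without Ebf1-KO replicate 2 (50), Pax5-KO replicate 2 (53) or Pax5-KO replicate 3 (49). The cause was not tested.

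Same-numbered ATAC libraries shared only a number (correlations -0.05 to 0.11). With the replicate block, sites lower and higher were 1459 and 56, 1103 and 86, and 589 and 87. The block also left the RNA counts within 1.5 times.

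Of the values of named sites and genes under alternatives, 3044 kept direction and side of the threshold, 102 lost their call, 35 gained one and 46 turned sign. Turned sites, in Ebf1-KO over WT under TMM, edgeR and DESeq2, were Gm7102 (0.38, 0.39, 0.46), Zfp960 (0.71, 0.71, 0.77) and Bcl6 (0.0034, 0.033, 0.095). Under TMM, quantile, edgeR and DESeq2 they were Sox4 (0.15, 0.38, 0.17, 0.24), Tcf3 (0.12, 0.49, 0.076, 0.16), Cxcr4 (0.034, 0.078, 0.051, 0.12) and Hes1 (0.21, 0.12, 0.20, 0.27), and Bach2 under DESeq2 (0.0091). In Pax5-KO over WT they were Gm7102 under TMM, edgeR and DESeq2 (0.054, 0.059, 0.056), Zfp960 under TMM, quantile, edgeR and DESeq2 (0.22, 0.21, 0.27, 0.26) and Hes1 in the same order (0.12, 0.25, 0.094, 0.10). Tcf3 turned under TMM, quantile and edgeR (0.70, 0.96, 0.72), Ccr9 under quantile and edgeR (0.17, 0.022) and Bach2 under quantile (0.11). Runx1 RNA in Ebf1-KO over WT turned and was called under TMM, edgeR and DESeq2 (-0.27, -0.27, -0.25).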

Other observations

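The X chromosome held 43 of the sites. Of these, 18.6% were called higher in Ebf1-KO than in Pax5-KO, where the share over the 2686 autosomal sites tested was 2.98%, and over all 172 bound sites tested on the X chromosome 15.1% were higher and 9.30% lower. The difference between chromosomes was not tested.

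Several genes carried more than 1 site with uneven behaviour. Tnfsf11, the gene of the cytokine RANKL, had 5 sites within 88.9 kb, all called lower in Ebf1-KO over WT, with a summed mean signal of 77.7 in WT, 22.6 in Ebf1-KO and 35.2 in the Pax5-KO libraries. Its mean RNA was 58.0 in WT, 34.1 in Ebf1-KO and 226 in the Pax5-KO libraries, so that RNA and summed accessibility were ordered differently. Zfp462, a zinc finger gene, had 5 sites with a summed signal of 63.0 in WT, 11.99 in Ebf1-KO and 14.01 in the Pax5-KO libraries, and mean RNA of 0.35, 0.26 and 36.6. Tle3, a corepressor gene, had 4 of its 5 sites lower and 1 higher in Ebf1-KO over WT, and mean RNA of 299, 785 and 384. These genes were picked after their values were seen.

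Other antigen receptor loci held few of the sites. The heavy chain locus Igh held 10, of which 5 were lower in Ebf1-KO over WT, the T-cell receptor loci Tra and Trd held 4 and Trb 2, and the lambda light chain locus held 1. Igh held 30 bound sites in all, of which 18 were PAX5-only, whereas Igk held 9 PAX5-only sites out of 84.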
